A study of Mus musculus with 24 samples.

Results

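The Notch genes described here are 10: the ligands Jag1, Jag2 and Dll1, the receptors Notch1, Notch2 and Notch3, and the target genes Hes1, Hes5, Hey1 and Heyl. They were found as every array probe that the scanner files annotate with one of those gene names, which gave 10 of 29273 gene names and 13 of 41174 probes. Notch1, Jag1 and Heyl had 2 probes each, called the brighter and the dimmer probe below, and the other 7 genes had 1. All 13 passed the filter on dim probes, as did 35477 probes in all.

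The series measured RNA of the urogenital sinus (UGS), the embryonic tube of endoderm and its surrounding mesenchyme from which the prostate buds in males, in C57/Bl6J mouse embryos. Pregnant females were given 50 mg/kg dihydrotestosterone (DHT), an androgen, or vehicle at 16.0 days post conception (dpc), and female embryos were dissected 6 h later (4 pairs of pools) or 12 h later (3 pairs). In 5 further pairs, the UGS of unmanipulated males was set against that of female littermates at 17.5 dpc, a point the labels also call 48 h. Every pool held RNA of several embryos sexed by their gonads, with the accessory ducts dissected away, and each pair was hybridised on 2 arrays with the dyes exchanged. No group carried a transgene or a mutation. The log2 ratios below are DHT over vehicle or male over female, averaged over the 2 arrays of a pair, and levels are log2 intensities of a pool. Levels of different probes are not comparable with each other. Values of several pairs are given in the order of the pair numbers.

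Notch receptors sit in the membrane of one cell and are bound by Jagged or Delta-like ligands in the membrane of its neighbour. Binding lets metalloproteases and then gamma-secretase cut the receptor, and the freed intracellular domain enters the nucleus, joins the DNA-binding protein RBPJ and switches on genes of the Hes and Hey families, which are themselves repressors of transcription. The pathway is known for choosing between cell fates, for the development of blood vessels and their mural cells, and, in rodent prostate, for roles in epithelial progenitor cells and in the mesenchyme.

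The labels were checked against marker genes. All of 20 epithelial and 11 mesenchymal marker genes were well above background in every pool. The Y-linked gene Eif2s3y had a level of 8.65, 7.64 and 7.80 in the 6 h vehicle pools of pairs 2, 3 and 4, against 6.02 in the vehicle pool of pair 1 and 5.99 to 6.37 in the 17.5 dpc female pools, so that 3 vehicle pools labelled female held Y-linked RNA. The value of pair 1 at 6 h is therefore pointed out for Notch1 and for the 4 other pathway genes that passed there. The mean log2 ratio of the 20 epithelial markers was −0.53, −0.44, −0.10 and −0.0058 in the 6 h pairs, −0.05, 0.36 and 0.53 in the 12 h pairs, and 0.064 to 0.51 in the male-female pairs. Across probes, the 2 dye-exchanged arrays of a pair correlated at r = −0.51 to −0.078 at 6 h, −0.22 to 0.090 at 12 h and 0.35 to 0.74 in the male-female pairs.

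The 250 bases before the annotated start of the genes on which the results turn were taken from RefSeq (build GRCm38.p6), in which 7 of the 10 genes were matched (not Hes1, Hey1 and Heyl). Notch1 is shown because both of its probes were lower after 6 h of DHT, Dll1 (at 2 annotated starts) because it was lower in males, and Hes5 as a target gene. Capitals mark TGGGAA, the core of the RBPJ motif, and AGAACA, one arm of the palindromic androgen receptor motif, each searched on both strands (TTCCCA and TGTTCT on the other), and no match overlapped another.
Notch1, chr2:26503823-26504072, minus strand: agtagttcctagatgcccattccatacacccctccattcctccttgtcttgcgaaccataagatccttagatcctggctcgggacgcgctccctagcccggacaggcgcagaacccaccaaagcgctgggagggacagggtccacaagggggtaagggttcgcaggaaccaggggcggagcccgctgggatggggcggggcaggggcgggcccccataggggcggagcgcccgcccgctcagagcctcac
Dll1 first start, chr17:15375824-15376073, minus strand: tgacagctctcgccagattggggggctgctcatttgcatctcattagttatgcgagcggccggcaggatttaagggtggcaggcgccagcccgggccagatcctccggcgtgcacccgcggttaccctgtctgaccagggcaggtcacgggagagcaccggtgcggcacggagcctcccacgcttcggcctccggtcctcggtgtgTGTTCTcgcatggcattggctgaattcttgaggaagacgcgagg
Dll1 second start, chr17:15376933-15377182, minus strand: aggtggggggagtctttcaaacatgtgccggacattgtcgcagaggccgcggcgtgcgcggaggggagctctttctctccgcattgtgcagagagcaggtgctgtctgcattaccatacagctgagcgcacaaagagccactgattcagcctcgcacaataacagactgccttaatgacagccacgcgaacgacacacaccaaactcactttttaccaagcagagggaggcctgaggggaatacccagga
Hes5, chr4:154960673-154960922, plus strand: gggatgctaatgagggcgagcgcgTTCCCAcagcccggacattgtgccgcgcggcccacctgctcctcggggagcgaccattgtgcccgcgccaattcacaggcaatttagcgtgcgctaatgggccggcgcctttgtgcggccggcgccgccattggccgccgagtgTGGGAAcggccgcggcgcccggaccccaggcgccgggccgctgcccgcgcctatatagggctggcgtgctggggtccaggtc
The Hes5 window held 2 matches to TGGGAA, beginning at −226 and −82 from the start and lying on opposite strands, and the Notch1 and Dll1 windows held none. The first Dll1 window held 1 match to AGAACA, at −44 on the opposite strand, and the Notch1, Hes5 and second Dll1 windows held none. Among 32851 RefSeq windows of the same length, 21.6% held TGGGAA and 16.1% held AGAACA. These matches describe the letters only.

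The 3 comparisons were fitted together in limma, with adjusted p-values (Benjamini-Hochberg over all 35477 probes) and a threshold of 0.05. After 6 h of DHT, 2 of the 13 probes passed, both of them Notch1 and both lower, against 1.69% of all probes. After 12 h limma called none of the 13, against 0.276% of all probes. Without adjustment the same threshold was met by 2 of the 13 at 6 h, 2 at 12 h and 3 between the sexes, against 13.6%, 15% and 16.5% of all probes. Between males and females 1 of the 13 passed, Dll1, which was lower in males, against 6.19% of all probes. The median log2 ratio of the 13 probes was −0.0048 at 6 h, 0.050 at 12 h and −0.015 between the sexes, and that of all probes was 0.0048, 0.00062 and 0.00056. The remaining 10 member probes passed in no comparison.

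**Figure D1:**
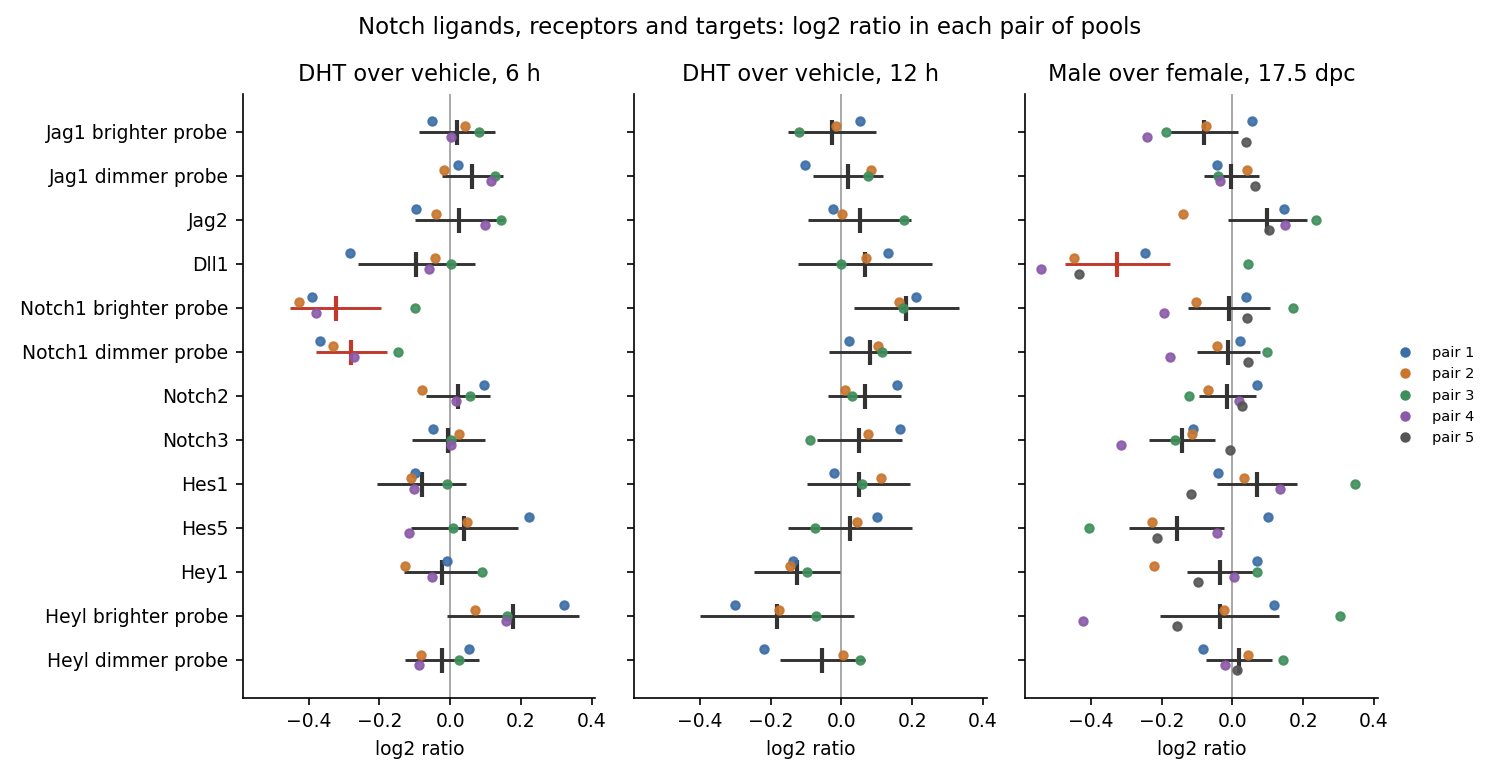
Log2 ratio (x axis) of the 13 Notch probes in each pair of pools (coloured points) for DHT over vehicle at 6 h and 12 h and for male over female, with the fitted mean (vertical tick) and its 95% confidence interval (bar), red where the adjusted p is under 0.05. Both Notch1 probes lie below 0 in all 4 pairs at 6 h, and Dll1 lies below 0 in 4 of 5 male-female pairs.

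Of the ligands, Dll1 differed between the sexes and Jag1 and Jag2 did not pass in any comparison. Dll1 encodes a Delta-like ligand that activates Notch receptors on neighbouring cells. In the 17.5 dpc female pools its level was 7.44, 7.51, 7.36, 7.61 and 7.69, and in the male pools of the same pairs 7.19, 7.06, 7.40, 7.07 and 7.26. The male pool was lower in pairs 1, 2, 4 and 5 and slightly higher in pair 3, and the ranges of the sexes overlapped only through pair 3. The log2 ratios were −0.25, −0.45, 0.044, −0.54 and −0.43, a mean of −0.33 ± 0.23 (SD, n = 5) or 1.25-fold lower in males, with a 95% confidence interval of −0.47 to −0.18 and a limma adjusted p of 0.0108. Both dye-exchanged arrays had the same sign in 4 of the 5 pairs. Without pair 4 the mean was −0.27 and the adjusted p 0.0616. Of markers of other cell types, limma called 5 of 13 smooth muscle and pericyte genes and 4 of 11 mesenchyme genes lower in males. Of all probes, 3.08% were called lower. The list means were −0.50 and −0.64 in pair 4. The part of these cell types in the Dll1 difference was not tested. The summed level of the mesenchymal list was 146279 to 166055 in females and 78508 to 167761 in males, and that of the smooth muscle and pericyte list 23990 to 32275 and 19032 to 32451. In tissue pools such as these, fewer cells of a type and less RNA per cell cannot be told apart.

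After DHT, Dll1 had log2 ratios of −0.28, −0.042, 0.0035 and −0.060 at 6 h and 0.13, 0.070 and −0.0013 at 12 h. Neither mean, −0.10 ± 0.13 (SD, n = 4) and 0.07 ± 0.07 (SD, n = 3), passed the threshold (limma adjusted p of 0.715 and 0.803). The level of Dll1 was highest in the 6 h vehicle pools (7.54 ± 0.12, SD, n = 4) and the females (7.52 ± 0.13, n = 5), which did not differ beyond their spread, followed by the 6 h DHT pools (7.45 ± 0.04), the males (7.20 ± 0.14), the 12 h DHT pools (7.20 ± 0.06) and the 12 h vehicle pools (7.14 ± 0.04). Levels of different comparisons came from arrays hybridised as separate sets, so age and array set cannot be told apart there.

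Jag1 encodes a Jagged ligand with wide roles in vessel, bile duct and heart development. Its brighter probe had log2 ratios of −0.051, 0.042, 0.082 and 0.0028 at 6 h, 0.054, −0.015 and −0.12 at 12 h, and 0.057, −0.075, −0.19, −0.24 and 0.039 between the sexes. Its dimmer probe had 0.022, −0.016, 0.13 and 0.12, then −0.10, 0.083 and 0.075, then −0.044, 0.042, −0.041, −0.035 and 0.063, and was well above background on 18 of 24 arrays. Pairs of both signs occurred in each comparison for both probes, and the 95% confidence interval of the brighter probe was −0.089 to 0.13 at 6 h, −0.15 to 0.098 at 12 h and −0.18 to 0.015 between the sexes. Jag1 varied more between the sets of arrays than within any of them: the brighter probe read 9.18 ± 0.07 (SD, n = 4) in 6 h vehicle pools, 10.19 ± 0.06 (n = 3) in 12 h vehicle pools and 9.78 ± 0.13 (n = 5) in 17.5 dpc females. The dimmer probe read 6.00 ± 0.06, 6.17 ± 0.10 and 6.20 ± 0.02 in the same groups, close to background at 6 h, where 2 of 8 vehicle arrays were well above it.

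Jag2, the other Jagged ligand, known in mice for limb and palate development, had log2 ratios of −0.10, −0.040, 0.14 and 0.10 at 6 h, −0.023, 0.0019 and 0.18 at 12 h, and 0.15, −0.14, 0.24, 0.15 and 0.10 between the sexes. Males were higher in 4 of 5 pairs, by a mean of 0.10 ± 0.14 (SD, n = 5), and this did not pass (limma adjusted p = 0.397). Its level stayed between 7.61 ± 0.07 in females and 7.74 ± 0.07 in 6 h DHT pools.

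Notch1 was the member that differed after 6 h of DHT. It encodes a receptor known in rodent prostate from epithelial progenitor cells and in the embryo from vessel formation. On the brighter probe its level was 8.71, 8.59, 8.51 and 8.54 in the 6 h vehicle pools and 8.32, 8.16, 8.41 and 8.16 in the DHT pools. The DHT pool was the lower one in each of the 4 pairs. The log2 ratios were −0.39, −0.43, −0.10 and −0.38, a mean of −0.32 ± 0.15 (SD, n = 4) or 1.25-fold lower, with a 95% confidence interval of −0.45 to −0.20 and a limma adjusted p of 0.0180. On the dimmer probe the level was 8.21, 8.03, 8.00 and 7.99 in vehicle pools and 7.84, 7.70, 7.85 and 7.72 in DHT pools. Again the DHT pool was the lower one in each pair. The log2 ratios were −0.37, −0.33, −0.15 and −0.27, a mean of −0.28 ± 0.10 (SD, n = 4) or 1.21-fold lower, with a limma adjusted p of 0.0120. For both probes the 2 dye-exchanged arrays had the same sign in all 4 pairs, although across all probes those arrays correlated below 0. Of all probes, 11.9% were below 0 in every 6 h pair.

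**Figure D2:**
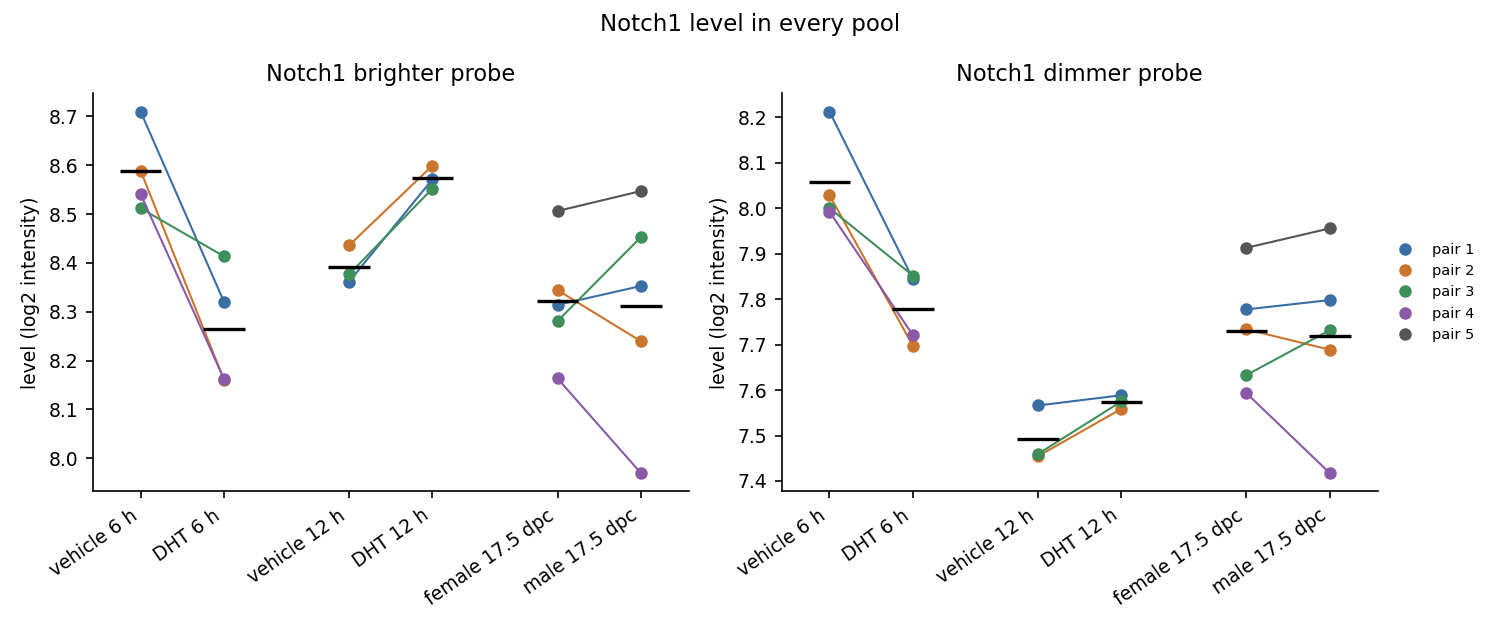
Notch1 level (y axis, log2 intensity) in every pool of the 6 conditions on its brighter (left) and dimmer (right) probe; lines join the 2 pools of a pair and black bars are means. In every 6 h pair the DHT pool lies below the vehicle pool on both probes, while males and females overlap.

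The Notch1 difference at 6 h stood beside other differences between the same pools. In pair 1, the pair without Y-linked RNA in its vehicle pool, the log2 ratios were −0.39 and −0.37. The part of the Y-linked RNA of the other pairs in the Notch1 difference was not tested. The epithelial marker mean was −0.53, −0.44 and −0.10 in pairs 1, 2 and 3. Notch1 in those pairs was −0.39, −0.43 and −0.10 on the brighter probe. In pair 4 the epithelial mean was −0.0058 and Notch1 was −0.38. All 20 epithelial markers had a negative mean log2 ratio at 6 h, none past the threshold in limma, and their summed level was 23444 to 31805 in vehicle and 20082 to 24076 in DHT pools. With the epithelial mean as a covariate Notch1 fell by 0.30 and 0.23 on the log2 scale and neither probe passed (adjusted p = 0.177 and 0.155). Leaving out a pair ended the call of the brighter probe for pair 1 (adjusted p = 0.147), pair 2 (0.129) and pair 4 (0.0682), and of the dimmer probe for pair 1 (0.105) and pair 2 (0.0845). Limma called 2 of 7 immune cell markers higher at 6 h, against 0.454% of all probes. Their summed level was 1203 to 1409 in vehicle and 1544 to 1700 in DHT pools, and their part in the Notch1 difference was not tested.

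After 12 h the sign of Notch1 was the opposite. On the brighter probe its level was 8.36, 8.44 and 8.38 in vehicle pools and 8.57, 8.60 and 8.55 in DHT pools. The DHT pool was the higher one in each of the 3 pairs, as was the case for 16.3% of all probes. The log2 ratios of 0.21, 0.16 and 0.18 had a mean of 0.18 ± 0.02 (SD, n = 3) and a limma adjusted p of 0.225, which did not pass. The dimmer probe gave 0.023, 0.10 and 0.12, and its 2 arrays had the same sign in 1 of 3 pairs. The epithelial marker mean of the same pairs was −0.05, 0.36 and 0.53. Notch1 was highest in pair 1 on the brighter probe and lowest in pair 1 on the dimmer probe. Over the 12 pairs Notch1 and the epithelial mean had a Pearson r of 0.683 on the brighter and 0.796 on the dimmer probe, as a description.

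**Figure D3:**
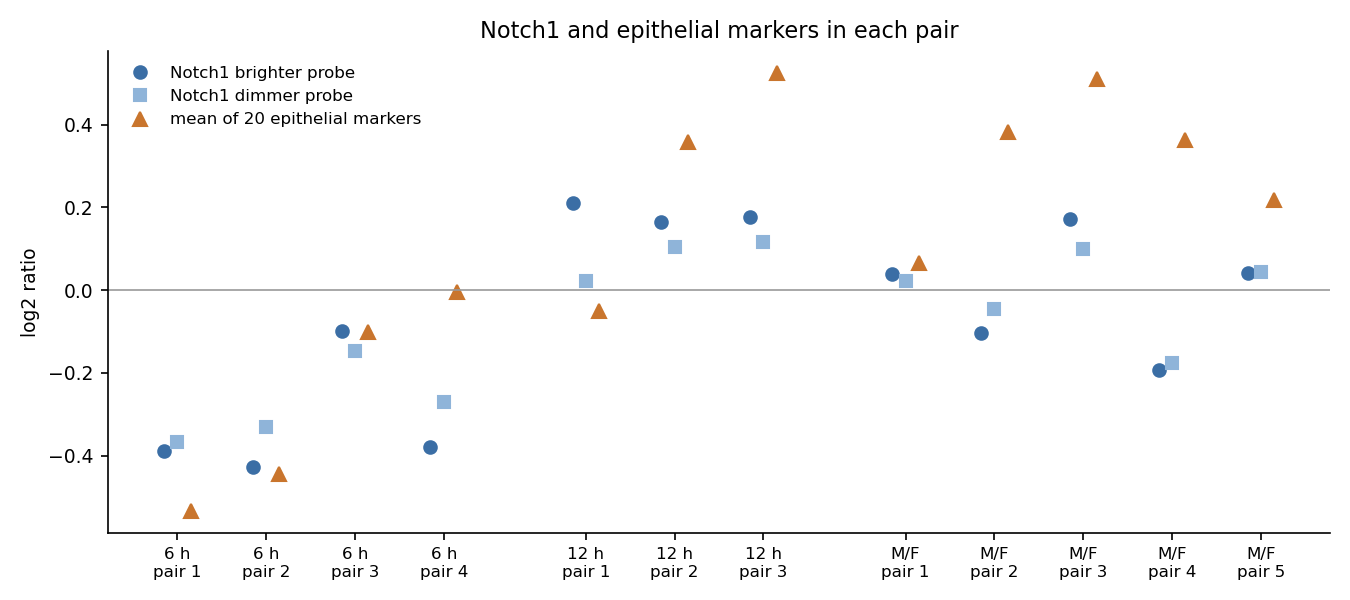
Log2 ratio (y axis) of both Notch1 probes and the mean log2 ratio of 20 epithelial markers in each of the 12 pairs (M/F, male over female). At 6 h Notch1 is below 0 in all 4 pairs, with the epithelial mean at −0.53, −0.44, −0.10 and −0.0058. In the male-female pairs the epithelial mean is above 0 in all 5 while Notch1 takes both signs. Over the 12 pairs Notch1 and the epithelial mean have a Pearson r of 0.683 (brighter probe) and 0.796 (dimmer probe).

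The difference between comparisons was tested directly in the same fit. Notch1 was higher by 0.51 on the log2 scale in the 12 h comparison than in the 6 h comparison on its brighter probe (95% confidence interval 0.31 to 0.70, limma adjusted p = 0.0483) and by 0.36 on its dimmer probe (adjusted p = 0.0604), where 0.259% of all probes passed. The male-female log2 ratio of Notch1, −0.01 on both probes, was above the 6 h ratio by 0.31 (adjusted p = 0.0359) and 0.27 (adjusted p = 0.0228), where 5.67% of all probes passed. These calls stood near the threshold. Between 12 h and 6 h, leaving out single pairs gave adjusted p-values of 0.0347 to 0.162 for the brighter probe, and its call held only without pair 3 at 6 h or pair 3 of the male-female pairs. Between the male-female and 6 h ratios, the brighter probe ranged from 0.0121 to 0.126 and lost its call without pairs 1, 2 or 4 at 6 h, pairs 2 or 3 at 12 h, or male-female pairs 1, 3 or 5. The dimmer probe ranged from 0.0117 to 0.0887 and lost its call without pairs 1 or 2 at 6 h or male-female pair 5. Limma called no member probe between the male-female and 12 h comparisons, where 1.33% of all probes passed. Without adjustment 3 member probes and 15.4% of all probes met the threshold there. In each of the other differences 3 member probes did so too, both Notch1 probes among them. The shares of all probes were 14.8% for 12 h minus 6 h and 17.7% for male-female minus 6 h. Between the male-female and 12 h comparisons the Dll1 difference was −0.39 (adjusted p = 0.110), and without male-female pair 3 it was −0.48 (adjusted p = 0.0120).

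The male-female log2 ratios of Notch1 were 0.039, −0.10, 0.17, −0.19 and 0.041 on the brighter probe and 0.021, −0.045, 0.10, −0.18 and 0.043 on the dimmer. Both signs occurred on both probes, and the 95% confidence interval of the brighter probe was −0.12 to 0.11. Over the 12 pairs the 2 Notch1 probes followed each other with a Pearson r of 0.965. By the same measure on the brighter probe, and among 11126 other genes, the log2 ratios most like those of Notch1 were those of Gpc1 (a cell surface heparan sulphate proteoglycan, r = 0.948), Fau (a ribosomal protein fused to a ubiquitin-like protein, r = 0.942) and Appbp2 (r = 0.935). For Dll1 they were Cnot6l (a deadenylase subunit, r = 0.915), Baz1a (a chromatin remodelling subunit, r = 0.914) and Cap2 (an actin-binding protein, r = 0.908). All of these come from the same 12 pairs of arrays and describe likeness only.

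Notch2, a second receptor that in mice is known for kidney, liver and vessel development, had log2 ratios of 0.10, −0.079, 0.055 and 0.017 at 6 h, 0.16, 0.011 and 0.031 at 12 h, and 0.070, −0.069, −0.12, 0.018 and 0.028 between the sexes. All 3 pairs at 12 h were above 0, as were 16.3% of all probes, but on no pair of 12 h arrays did the exchanged dyes give the same sign. The means of 0.02, 0.07 and −0.015 did not pass (limma adjusted p of 0.935, 0.576 and 0.930). Its level lay between 6.39 ± 0.07 (SD, n = 4) in 6 h vehicle pools and 6.67 ± 0.07 (n = 5) in females.

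Notch3, a receptor known from vascular smooth muscle and pericytes, read 9.99, 10.06, 9.96, 9.92 and 9.94 in the 17.5 dpc female pools and 9.87, 9.94, 9.80, 9.61 and 9.93 in the male pools. The male pool was the lower one in all 5 pairs, while the ranges of the sexes overlapped. The log2 ratios of −0.11, −0.12, −0.16, −0.31 and −0.008 had a mean of −0.14 ± 0.11 (SD, n = 5) and a limma adjusted p of 0.0741, above the threshold; 7.3% of all probes were below 0 in every male-female pair. Without pair 5 the mean was −0.18 and the adjusted p 0.0395, below the threshold. In pair 4, the lowest for Notch3, the mean of the smooth muscle and pericyte markers was also lowest (−0.50), and its part in the Notch3 value was not tested. After DHT the Notch3 ratios were −0.050, 0.025, 0.0037 and 0.0018 at 6 h and 0.17, 0.074 and −0.088 at 12 h. At 6 h the 4 pairs lay within 0.05 of 0, the narrowest spread of the member genes (SD 0.03).

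**Figure D4:**
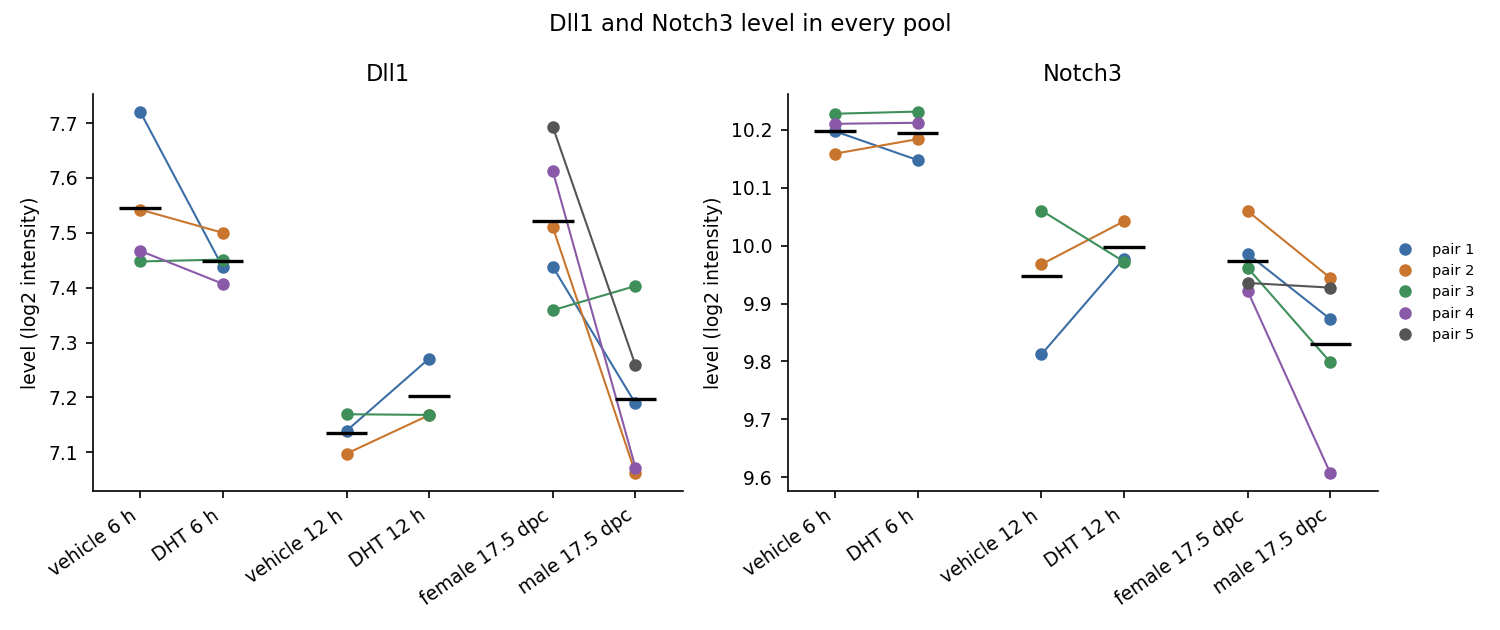
Level (y axis, log2 intensity) of Dll1 (left) and Notch3 (right) in every pool of the 6 conditions; lines join the 2 pools of a pair and black bars are means. Dll1 is lower in the male pool of 4 of 5 pairs, and Notch3 in all 5 by a smaller amount.

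None of the 5 target gene probes passed in any of the 3 comparisons or their differences. Of all probes, 1.69% passed at 6 h, 0.276% at 12 h and 6.19% between the sexes. For the differences the shares were 0.259% (12 h minus 6 h), 5.67% (male-female minus 6 h) and 1.33% (male-female minus 12 h). Hes1, a repressor widely used as a readout of Notch activity, had log2 ratios of −0.10, −0.11, −0.010 and −0.10 at 6 h, where all 4 pairs were below 0 with a mean of −0.08 ± 0.05 (SD, n = 4, limma adjusted p = 0.662). Its ratios were −0.022, 0.11 and 0.059 at 12 h and −0.042, 0.033, 0.34, 0.13 and −0.12 between the sexes, with both signs in each. At 6 h its 95% confidence interval was −0.21 to 0.046, and 11.9% of all probes were below 0 in every 6 h pair. Its level was 6.49 ± 0.07 (SD, n = 4) in 6 h vehicle pools, 7.32 ± 0.12 (n = 3) in 12 h vehicle pools and 6.83 ± 0.13 (n = 5) in females, which is the same order as for the brighter Jag1 probe.

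Hes5, a Notch target best known from neural progenitors, was measured by 1 probe. Its log2 ratios were 0.22, 0.047, 0.0072 and −0.12 at 6 h and 0.10, 0.045 and −0.074 at 12 h. Both signs occurred at both times, with means of 0.04 and 0.02. Between the sexes the level was 7.09, 7.19, 7.37, 7.12 and 7.20 in females and 7.19, 6.96, 6.96, 7.07 and 6.99 in males, lower in males in 4 of 5 pairs. The ratios of 0.10, −0.23, −0.41, −0.045 and −0.21 had a mean of −0.16 ± 0.19 (SD, n = 5), which did not pass (limma adjusted p = 0.203). Without pair 1 the mean was −0.22 and the adjusted p 0.0495.

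Hey1, a repressor of the Hey family that Notch induces in vessels and elsewhere, was lower after 12 h of DHT in all 3 pairs, with log2 ratios of −0.14, −0.14 and −0.10. Its level was 10.12, 10.13 and 10.04 in the vehicle pools and 9.99, 9.99 and 9.94 in the DHT pools. The mean of −0.13 ± 0.03 (SD, n = 3) did not pass (limma adjusted p = 0.312), and 19.3% of all probes were below 0 in every 12 h pair. Its ratios at 6 h were −0.0086, −0.13, 0.089 and −0.051, and between the sexes 0.068, −0.22, 0.070, 0.0031 and −0.10, with both signs in each.

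Heyl, the Hey family member known from vascular smooth muscle, was read differently by its 2 probes. On the brighter probe the 6 h pairs gave 0.32, 0.070, 0.16 and 0.16 and the 12 h pairs −0.30, −0.18 and −0.071. All 6 h pairs were thus above 0, as were 11.8% of all probes, and all 12 h pairs below 0, as were 19.3%. Neither mean, 0.18 ± 0.11 (SD, n = 4) nor −0.18 ± 0.11 (SD, n = 3), passed (limma adjusted p of 0.406 and 0.432). The difference between the 2 times was −0.36 (adjusted p = 0.228). The dimmer probe gave 0.054, −0.084, 0.025 and −0.087 at 6 h and −0.22, 0.0044 and 0.053 at 12 h, so it showed neither pattern. Between the sexes the brighter probe gave 0.12, −0.023, 0.31, −0.42 and −0.16 and the dimmer −0.083, 0.044, 0.14, −0.021 and 0.014. The brighter probe had the widest male-female spread of the member probes (SD 0.28), with both signs.

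The other genes of the pathway came from a list of 59, of which 58 were measured on a probe that passed the filter, with 1 probe, the brightest, standing for each gene. After 6 h of DHT, 4 of the 58 were lower and none higher in limma, against 1.23% lower and 0.454% higher of all probes. Both proteases among them act on Notch receptors: Furin, which cuts the receptor precursor in the Golgi, had log2 ratios of −0.40, −0.31, −0.11 and −0.34 (mean −0.29 ± 0.13, SD, n = 4, adjusted p = 0.0104). Adam17, a metalloprotease that can cut Notch at the cell surface, had −0.38, −0.24, −0.14 and −0.24 (mean −0.25 ± 0.10, SD, n = 4, adjusted p = 0.0403), and its other probe −0.22 (adjusted p = 0.0241). Snw1, listed under its older name Skiip, is a transcription cofactor that binds the RBPJ complex. On the 1 probe matched by accession it had −0.32, −0.26, −0.26 and −0.27 (adjusted p = 0.0202). The mean over the probes named Skiip was −0.12 and did not pass (adjusted p = 0.135), so those probes did not all give the same value. Dtx2, a Deltex ubiquitin ligase, had −0.18, −0.24, −0.11 and −0.073 (adjusted p = 0.0478). In pair 3, in which Notch1 moved least, Furin and Adam17 moved least too, whereas Dtx2 moved least in pair 4 and Snw1 differed little between pairs. None of these 4 passed with the epithelial mean as a covariate, with values of −0.25 for Furin (adjusted p = 0.134), −0.18 for Adam17 (0.316), −0.21 for Snw1 (0.215) and −0.10 for Dtx2 (0.344).

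**Figure D5:**
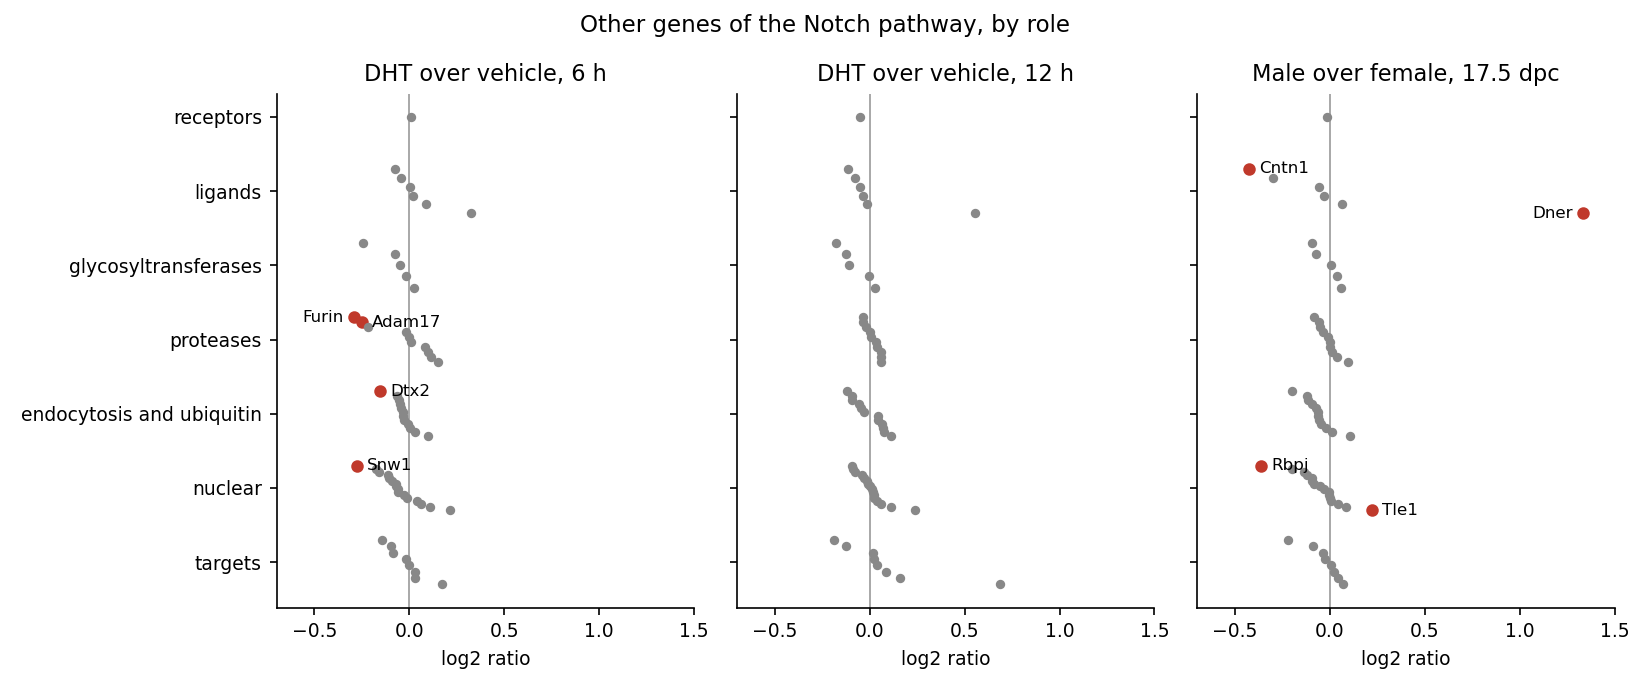
Mean log2 ratio (x axis) of 58 other Notch pathway genes, 1 point a gene, grouped by role (y axis) for the 3 comparisons, red and named where the adjusted p is under 0.05. At 6 h 4 genes are lower, none passes at 12 h, and Dner (1.33) lies apart from the rest between the sexes.

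All 4 of these genes lost their call with the scanner's own log ratio (limma adjusted p of 0.0770 for Furin, 0.125 for Adam17, 0.0791 for Snw1 and 0.171 for Dtx2). In pair 1, the pair without Y-linked RNA in its vehicle pool, their ratios were −0.40, −0.38, −0.32 and −0.18. The part of the Y-linked RNA in the other pairs was not tested. Leaving out pairs also changed several of these calls. Furin lost its call without pair 1 (adjusted p = 0.0942) or pair 2 (0.0734). Snw1 lost it without any one of the 4 pairs at 6 h (0.0607 to 0.150), and the mean over the probes named Skiip was −0.12 (0.135). Adam17 and Dtx2 lost theirs without any one of the 4 pairs at 6 h (0.0545 to 0.273 and 0.0597 to 0.266). Adam17 also lost it without any of the 3 pairs at 12 h or male-female pair 4, and Dtx2 without pairs 2 or 3 at 12 h or male-female pairs 2, 4 or 5, which changes only the estimate of the spread. Tle1, a Groucho corepressor, had −0.11 on its brightest probe at 6 h (adjusted p = 0.371) but 0.29 on another (adjusted p = 0.0228), so that its probes disagreed in sign.

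After 12 h limma called none of the 58, against 0.276% of all probes. Without adjustment 5 met the threshold, against 15% of all probes. Of the genes named whatever their values, Notch4, the receptor of endothelium, had a mean log2 ratio of −0.05, Dll4, the ligand of arterial and tip cell endothelium, −0.11, Lfng, a glycosyltransferase that modifies receptors, −0.0013, Hey2 −0.12 and Nrarp, a Notch-induced inhibitor, 0.04. At 6 h the same genes had 0.0087, −0.04, 0.02, 0.17 and 0.03, and between the sexes −0.02, −0.03, 0.04, −0.03 and 0.0051. Hey2 came closest, with 0.31, 0.26, −0.071 and 0.18 at 6 h (limma adjusted p = 0.172); without pair 3 it was 0.25 (adjusted p = 0.0446).

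Between males and females, 2 of the 58 were higher and 2 lower in limma, against 3.11% and 3.08% of all probes. Dner, a membrane protein described as an atypical Notch ligand in neurons and glia, had the highest log2 ratio of the list, at 1.32, 1.07, 1.02, 1.68 and 1.58 (mean 1.33 ± 0.29, SD, n = 5, adjusted p = 6.33e-05), and its other probe gave 1.27 (adjusted p = 2.9e-05). After 12 h of DHT the brightest probe of Dner gave 0.45, 0.26 and 0.95, above 0 in 3 of 3 pairs, as were 16.3% of all probes. The 12 h mean did not pass the threshold (limma adjusted p = 0.174). At 6 h the probe gave 0.64, −0.42, −0.12 and −0.39. The 6 h vehicle pools of pairs 2, 3 and 4, in which Dner was lower after DHT, held Y-linked RNA. Its part in these values was not tested. Markers of neurons and Schwann cells, the cells for which Dner is best known, were called for 0 of 9 genes, against 6.19% of all probes. Their list means were −0.073, 0.028, −0.35, −0.18 and 0.13 in the 5 male-female pairs. Their summed level was 5082 to 7381 in females and 4574 to 7253 in males. Epithelial markers moved in the same direction as Dner: 10 of 20 were called higher in males and 1 lower, with a median log2 ratio of 0.38 and a summed level of 40065 to 48511 in females and 45553 to 63632 in males. With the epithelial mean as a covariate Dner was higher by 1.45 (adjusted p = 0.00147). The part of either cell type in the Dner difference was not tested.

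Rbpj, the DNA-binding protein through which all Notch receptors act, was lower in males in all 5 pairs, with log2 ratios of −0.33, −0.36, −0.11, −0.51 and −0.52 (mean −0.36 ± 0.17, SD, n = 5, limma adjusted p = 0.000807). Of all probes, 7.3% were below 0 in every male-female pair. Rbpj was measured by 1 probe, listed as Rbpsuh, and its mean after DHT was 0.04 at 6 h and −0.01 at 12 h. Cntn1, a neural adhesion protein reported as a Notch ligand, was lower too, with −0.32, −0.31, −0.63, −0.62 and −0.24 (mean −0.43 ± 0.19, SD, n = 5, adjusted p = 0.00034), and its other probe gave −0.18 (adjusted p = 0.0143). Limma called 4 of 11 mesenchyme markers (median −0.36) and 5 of 13 smooth muscle and pericyte markers (median −0.30) lower in these male pools. It did so for 2 of 7 immune cell markers (median −0.15, summed level 1256 to 1482 in females and 1022 to 1259 in males). Of all probes, 3.08% were called lower. The part of these cell types in the Rbpj and Cntn1 differences was not tested. With the epithelial mean as a covariate Rbpj was −0.42 (adjusted p = 0.00803) and Cntn1 −0.37 (0.0216), and with the endothelial mean −0.43 (0.00692) and −0.27 (0.0232). Tle1 was higher, with 0.15, 0.16, 0.21, 0.19 and 0.39 (mean 0.22 ± 0.10, SD, n = 5, adjusted p = 0.0129), and its 3 probes had one sign. Its call ended with median centring (0.14, adjusted p = 0.227), with the epithelial covariate (0.17, 0.245), with the endothelial covariate (0.26, 0.0882) and without pair 5 (0.18, 0.0515). On probes that were not the brightest of their gene, Aph1c, a gamma-secretase subunit, gave −0.15 (adjusted p = 0.0352) and Dtx4 −0.18 (adjusted p = 0.02), while their brightest probes gave −0.084 and −0.056 and did not pass. None of the 8 further target genes and none of the 10 proteases passed on the brightest probe between the sexes, against 6.19% of all probes.

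In the differences between comparisons, limma called none of the 58 genes for 12 h minus 6 h, against 0.259% of all probes. It called none for male-female minus 12 h, against 1.33% of all probes. Without adjustment 13 and 11 genes met the threshold, against 14.8% and 15.4% of all probes. For male-female minus 6 h limma called 5 higher and 4 lower, against 2.99% and 2.67% of all probes. Those that differed at 6 h or between the sexes made up most of them: Dner (1.41, adjusted p = 0.00204), Tle1 (0.34, 0.0149), Snw1 (0.28, 0.0333), Dtx2 (0.26, 0.0066) and Furin (0.24, 0.039) were higher, and Cntn1 (−0.43, 0.00912) and Rbpj (−0.40, 0.0101) lower. Aph1c was also lower (−0.20 on its brightest probe, 0.00841), with log2 ratios of 0.12, 0.082, 0.13 and 0.13 at 6 h and −0.078, −0.037, −0.091, −0.11 and −0.11 between the sexes. Every 6 h pair was thus above 0, as were 11.8% of all probes, and every male-female pair below 0, as were 7.3%. Neither mean passed by itself. With only pair 1 at 6 h, the pair without Y-linked RNA in its vehicle pool, the Dner difference was 0.70.

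Dlk1, a Delta-like membrane protein known as an inhibitor of fat cell formation and classed as an atypical Notch ligand, differed by −0.62 (adjusted p = 0.0351). Its log2 ratios were 0.80, 0.46, −0.035 and 0.071 at 6 h, −0.091, −0.010 and 0.058 at 12 h, and −0.35, −0.084, −0.40, −0.64 and −0.027 between the sexes. All 5 male pools were below their female partners, as was the case for 7.3% of all probes. The 6 h pairs were uneven, with pairs 1 and 2 far above pairs 3 and 4. Its other probe gave −0.46 (adjusted p = 0.132). The Dlk1 call ended without pairs 1 or 2 at 6 h, pair 2 at 12 h or male-female pairs 1, 3 or 4 (−0.74 to −0.47 and adjusted p of 0.0217 to 0.120 over all pairs left out in turn), and the difference was −0.31 (0.620) with the epithelial and −0.19 (0.885) with the endothelial covariate. Leaving out pairs also ended the calls of Furin (pairs 1, 2 or 4 at 6 h, 2 or 3 at 12 h, male-female pairs 1 to 4, at most 0.140), Snw1 (any pair at 6 h, male-female pairs 2, 3 or 5, at most 0.106) and Tle1 (pairs 1 or 2 at 6 h, at most 0.0574). None of the 9 differences passed with the epithelial covariate or with pair 1 alone at 6 h.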

How the data were processed

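RNA of paired UGS pools was measured on 24 Agilent 2-colour whole mouse genome arrays. The deposited scanner output gives spot intensity and local background, and a log10 ratio (Cy5 over Cy3, dye-normalised) that Feature Extraction 7.5.1 computed, per the file headers. The deposited series matrix holds log2 ratios already turned to treated over control, with their centring and spot filter not given in the sources used here, and column medians near 0; it served as an alternative only. The genome build is not given in the sources used here.

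Mean signals and median backgrounds were corrected (normexp, offset 50) and normalised by loess within each array in R 4.3.3 with limma 3.58.1 (text files read with the R package data.table, version 1.17.8); control spots were given no weight and outlier spots set to missing. The offset draws ratios of dim probes toward 0. Spots of a probe, then the 2 dye-exchanged arrays of a pair, were averaged, which left 12 pairs (4, 3 and 5). Probes with a channel well above background on at least 6 of 24 arrays were kept, 35477 of 41174. All pairs were fitted together, with 1 coefficient per comparison, and the differences between comparisons were contrasts. Moderated tests were two-sided, adjusted by Benjamini-Hochberg over all probes at 0.05. Levels are log2 intensities after loess and Aquantile. SD is over pairs or pools, and the number of arrays limits the precision. The fit was tested on simulated data of the same size (35477 probes), with independent noise for each probe and pair. It recovered 76.1% of changes of 0.3 on the log2 scale at 6 h, 55.2% at 12 h and 71.6% between the sexes. Shifts shared by many probes, such as those of the epithelial markers, were not simulated, so recovery in the real pairs may be lower.

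The genes, lists, tests and alternatives were chosen with earlier results of these data known. Named are all 13 member probes; pathway genes past the threshold in any comparison or difference plus Notch4, Dll4, Rbpj, Lfng, Hey2 and Nrarp; and the 3 genes most like each called member. Pathway genes were matched by name for 46, accession for 8 and synonym for 4. Alternatives changed background correction, normalisation, filter, probe summary, spread, dye term, covariate and replicates.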

Additional observations from a re-analysis of the deposited data

Results flagged for a closer look

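In the 4 pairs at 6 h, 1 pair stood far from the others for 2 member probes by Dixon's test, a limit that chance passes in about 1 in 20 groups. Pair 3 had a log2 ratio of −0.099 for the brighter Notch1 probe, against −0.38 to −0.43 in the other pairs. Pair 3 was also the one apart for Hes1, with −0.010 against −0.10 to −0.11. In both genes it kept the sign of the other pairs. Its vehicle pool held Y-linked RNA, as did those of pairs 2 and 4. Among the named pathway genes, pair 1 stood apart for Snw1 at 6 h (−0.32), and male-female pair 5 for Tle1 (0.39).

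Notch1 differed between comparisons by the test of the difference itself. The 12 h ratio exceeded the 6 h ratio by 0.51 on the brighter probe. The male-female ratio exceeded the 6 h ratio by 0.31 on the brighter probe and by 0.27 on the dimmer probe. Among pathway genes the male-female ratio differed from the 6 h ratio by 1.41 for Dner, 0.34 for Tle1, 0.28 for Snw1, 0.26 for Dtx2, 0.24 for Furin, −0.20 for Aph1c, −0.40 for Rbpj, −0.43 for Cntn1 and −0.62 for Dlk1. The arrays of the 3 comparisons were hybridised as separate sets, so a difference between them and a difference between array sets cannot be told apart.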

How the results depend on the processing

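Of 2208 values of member and named pathway genes under alternatives, 1925 kept their sign and side of the threshold, 171 lost a call, 16 gained one and 96 changed sign. A sign change counts whatever its size, and in all 96 neither value passed the threshold. The causes were not tested, apart from smaller numbers of pairs or probes. Only 12 pairs of pools, 3 to 5 a comparison, and dim probes near background limit the precision. Notch1 at 6 h kept its sign in every alternative run and lost its call with the scanner's own log ratio (−0.38 and −0.35, adjusted p = 0.0977 and 0.0847), the epithelial covariate or pair 1 alone; its brighter probe also lost it with each comparison fitted alone (0.0619). Dll1 between the sexes lost its call when fitted alone (0.124) and with the epithelial covariate (−0.37, 0.0686). Extraction day of the arrays as a random block was chosen after seeing the data.

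The counts of all probes called at 6 h (599), 12 h (98), between the sexes (2197) and for 12 h minus 6 h (92), male-female minus 6 h (2010) and male-female minus 12 h (472) changed most as follows. Without background correction the counts were 8 at 12 h and 40 for 12 h minus 6 h. With median centring they were 271 at 6 h, 28 at 12 h and 982 for male-female minus 6 h. The scanner's log ratio gave 50 at 6 h, 0 for 12 h minus 6 h and 1210 for male-female minus 6 h. The series matrix gave 996, 0 and 59 (6 h, 12 h, 12 h minus 6 h). With no filter on dim probes 172 were called at 12 h, and with at least 12 arrays required 30. With outlier spots kept the counts were 40 at 12 h and 61 for 12 h minus 6 h. The brightest probe of a gene gave 26 and 28 for the same, and the mean of a gene's probes 271 at 6 h and 32 for 12 h minus 6 h. Each comparison fitted alone gave 312, 0 and 1017. A dye term with the pair as random block gave 1920, 543, 3435, 991, 3587 and 1164. The epithelial covariate gave 29, 0, 911, 0 and 178 for the same without the last, and the endothelial covariate 23 at 12 h, 780 between the sexes, 3 for 12 h minus 6 h and 391 for male-female minus 6 h. Pair 1 alone at 6 h gave 2, 6 and 95 (6 h, 12 h minus 6 h, male-female minus 6 h). Extraction day gave 1273, 3660, 4253, 1755, 3714 and 3418. The correlation within a day was estimated at −0.198. That is below 0, so pairs of the same day were fitted as less alike than pairs of different days. Leaving out 1 pair gave 35 to 801, 0 to 130, 1326 to 2206, 0 to 131, 980 to 2191 and 127 to 476.

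The number of the 13 member probes called at 6 h (2) was 0 with the scanner's log ratio, the epithelial covariate or pair 1 alone, 1 with the brightest probe, the gene mean or separate fits, and 0 to 2 without 1 pair. At 12 h (0) it was 1 with extraction day and 0 without any 1 pair. Between the sexes (1) it was 0 fitted alone or with the epithelial covariate, 2 with the dye term, 3 with extraction day, and 0 to 2 without 1 pair. For 12 h minus 6 h (1) it was 2 with median centring, the dye term or extraction day, 0 in 9 other alternatives (no background correction, scanner log ratio, series matrix, outlier spots kept, brightest probe, gene mean, both covariates, pair 1 alone) and 0 to 2 without 1 pair. For male-female minus 6 h (2) it was 0 with median centring, the scanner log ratio, either covariate or pair 1 alone, 1 with the brightest probe or gene mean, and 0 to 2 without 1 pair. For male-female minus 12 h (0) it was 1 with the dye term, 2 with extraction day, and 0 to 1 without 1 pair.

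Signs changed as follows. With the epithelial covariate they changed at 6 h for Notch2 (−0.027), Jag1 brighter (−0.037), Hes1 (0.00079), Heyl dimmer (0.042), Hes5 (−0.099), Notch4 (−0.054) and Lfng (−0.027), at 12 h for Jag1 brighter (0.031), Jag1 dimmer (−0.042), Jag2 (−0.025), Hes1 (−0.034), Notch4 (0.013), Lfng (0.049) and Nrarp (−0.028), and between the sexes for Notch2 (0.041), Hes1 (−0.022), Heyl dimmer (−0.054), Notch4 (0.055), Hey2 (0.057) and Nrarp (−0.068). With median centring they changed at 6 h for Jag1 brighter (−0.031), Jag2 (−0.031), Notch4 (−0.043), Rbpj (−0.0027) and Nrarp (−0.0071), at 12 h for Jag1 brighter (0.033), Jag1 dimmer (−0.016), Lfng (0.0099) and Rbpj (0.041), and between the sexes for Jag1 dimmer (0.023). With the endothelial covariate they changed at 6 h for Jag1 brighter (−0.019), Hey1 (0.021) and Notch4 (−0.063), at 12 h for Jag1 brighter (0.0038), Jag2 (−0.0011) and Notch4 (0.0059), and between the sexes for Notch2 (0.013), Jag1 dimmer (0.022), Jag2 (−0.019), Hes1 (−0.038), Notch4 (0.11), Dll4 (0.00066), Hey2 (0.068) and Nrarp (−0.027). In pair 1 alone they changed at 6 h for Jag1 brighter (−0.051), Jag2 (−0.098), Heyl dimmer (0.054) and Rbpj (−0.068). With the series matrix they changed at 6 h for Heyl dimmer (0.0047), at 12 h for Jag1 dimmer (−0.010) and Lfng (0.017), and between the sexes for Jag1 dimmer (0.0034). Without background correction they changed at 12 h for Jag1 dimmer (−0.0024) and Lfng (0.013), and between the sexes for Jag1 dimmer (0.0017). With the scanner's log ratio they changed at 12 h for Jag1 dimmer (−0.086) and Lfng (0.085). Leaving out 1 pair changed 37 of them, with these ranges over the pairs left out. At 6 h the range was −0.0025 to 0.056 for Notch2, −0.015 to 0.010 for Notch3, −0.0023 to 0.042 for Jag1 brighter, −0.014 to 0.067 for Jag2, −0.062 to 0.0098 for Hey1, −0.021 to 0.092 for Hes5, −0.0092 to 0.025 for Notch4, −0.010 to 0.073 for Lfng and −0.0094 to 0.074 for Rbpj. At 12 h the range was −0.0069 to 0.12 for Notch3, −0.067 to 0.020 for Jag1 brighter, −0.013 to 0.079 for Jag1 dimmer, −0.011 to 0.090 for Jag2, −0.11 to 0.029 for Heyl dimmer, −0.014 to 0.073 for Hes5, −0.10 to 0.0049 for Notch4, −0.064 to 0.038 for Lfng, −0.027 to 0.0059 for Rbpj and −0.0079 to 0.087 for Nrarp. Between the sexes the range was −0.055 to 0.037 for Notch1 brighter, −0.039 to 0.029 for Notch1 dimmer, −0.036 to 0.012 for Notch2, −0.020 to 0.0073 for Jag1 dimmer, −0.063 to 0.011 for Hey1, −0.12 to 0.060 for Heyl brighter, −0.011 to 0.045 for Heyl dimmer, −0.051 to 0.019 for Notch4, −0.061 to 0.023 for Dll4, −0.055 to 0.0058 for Hey2 and −0.044 to 0.039 for Nrarp.

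Pairs with the same replicate number in different comparisons correlated at −0.062 to 0.27 in their deviations (10 such pairs, 6 over 0.1), and the numbers are only numbers. With the replicate number as a block the counts were 176 at 6 h, 6 at 12 h, 216 for 12 h minus 6 h and 196 for male-female minus 12 h, and the sign changed for Notch3 at 6 h (0.029) and Lfng at 12 h (0.021).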
